A study of Mus musculus with 8 samples.

Results

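The Bcl2 family regulates apoptosis at the mitochondrion. The genes described here are the 10 family members listed for this comparison, found in the table of normalized read counts by their gene symbol: Bcl2, Bcl2l1, Bcl2l2, Mcl1, Bak1, Bok, Bcl2l11, Bid, Bad and Bik. All 10 were among the 13558 transcripts of the table, which holds only transcripts above a minimum expression in at least 1 genotype. The question was whether loss of Trim71, which encodes an RNA-binding ubiquitin ligase, went along with altered levels of these mRNAs in mouse embryonic stem (mES) cells. Bad, a sensitizer of apoptosis, was 1.34-fold higher in Trim71 deficient cells with no overlap between the genotypes (exact permutation p = 0.0286, limma adjusted p = 0.457), Bid was 1.19-fold higher with no overlap either, and the other 8 members overlapped. With limma, 0 of the 10 members had an adjusted p under 0.05 and 1 (Bad) had an unadjusted one. Of all transcripts, 0% had an adjusted limma p under 0.05, 9.09% had an unadjusted one, and the genotypes did not overlap in 10.1%.

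The mES cells were male and C57BL/6, derived from blastocysts and grown in serum with LIF. They carried a conditional Trim71 allele (Trim fl/fl in the labels) whose last exon is flanked by loxP sites, together with a tamoxifen-inducible Cre recombinase at the Rosa26 locus (Rosa26-CreERT2). 4 libraries of unrecombined Trim71fl/fl cells are named WT, so the control cells hold the floxed allele and the recombinase too. 4 libraries named KO came from Trim71-/- cells, obtained from the conditional cells by 4-hydroxytamoxifen (500 nM per the labels) over 2 days and a further culture of 7 days or more. The study's methods instead describe a lower dose, a shorter further culture and controls given the vehicle DMSO, and which holds for these libraries is not known. 4-hydroxytamoxifen was given to the KO cells, so recombination and drug exposure cannot be told apart. Before lysis, SSEA-1 positive cells were selected magnetically in order to remove differentiated cells. Both genotypes came from the same 2 clones. Clone E3 gave 3 KO and 2 WT libraries, and clone 1 gave 1 KO (replicate 4) and 2 WT libraries (replicates 1 and 4). Days 3, 4 and 5 of the labels each have 1 KO and 1 WT library of the same clone (KO replicate 2 with WT replicate 2, then 3 with 3 and 4 with 4), whereas KO replicate 1 (day 2) and WT replicate 1 (day 1) have no partner. The sources used here do not say what a day counts or whether libraries came from separate cultures, so p-values measure the spread between these libraries only.

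Per-library values are normalized read counts after a batch correction by the authors, and stand in the order of replicates 1 to 4 of a genotype. The study's methods do not name the batch. It was taken to be the clone (the clone correction), as almost no clone effect was left in the values. In transcripts with all values above 1, that effect was at most 5.68e-06 of the highest value. Log2 fold changes are differences of log2(value + 1), KO minus WT, from limma, a linear model across all transcripts with genotype and clone as terms. Whole reads were worked back from the values (recovered reads). The targeted gene, Trim71, was at 500, 793, 733 and 247 in KO and at 2782, 2736, 1988 and 2584 in WT. With the clone correction undone the KO libraries were at 223, 516, 456 and 524, so KO replicate 4 went from the lowest to the highest of them. KO libraries were all below WT libraries either way (log2 fold change -2.39, SE 0.35), and the reads left in KO libraries can come from the exons that were not deleted. Recovered reads per library ranged from 7534752 in WT replicate 2 to 27820094 in WT replicate 3. The 9 ES cell markers checked, such as Pou5f1 and Nanog, were all present, with a summed level of 71502 to 96411 normalized counts in KO and 63766 to 83919 in WT libraries, and 0 of them had an unadjusted p under 0.05. The markers checked for other cells had lower summed levels, though not all were low. Of fibroblast markers, 4 of 8 were in the table (114 to 217 in KO, 104 to 173 in WT), with Col3a1, Dcn, Lum and Postn absent from it. For endoderm it was 6 of 6 (259 to 569.6 in KO, 67.9 to 422 in WT) and for mesoderm 4 of 6 (137 to 168 in KO, 103 to 173 in WT). For neural cells it was 5 of 6 (719 to 993 in KO, 854 to 1515 in WT). For blood it was 2 of 5 (98.2 to 205 in KO, 19.5 to 261 in WT), with Hbb-bt and Hba-a1 among those absent. Of these markers of other cells, Eomes (higher in KO) and Nes (lower) had an unadjusted limma p under 0.05. The part of such cells in the values below was not tested.

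Members of the Bcl2 family fall into 3 functional groups. Pro-survival proteins, here Bcl2, Bcl2l1 (Bcl-xL), Bcl2l2 (Bcl-w) and Mcl1, hold in check effectors such as Bak1. Effectors, here Bak1 and Bok along with Bax, can permeabilise the outer mitochondrial membrane and release cytochrome c. BH3-only proteins, here Bcl2l11 (Bim), Bid, Bad and Bik, are the stress sensors: through the short BH3 helix that names them they occupy the groove of pro-survival proteins, and some also engage the effectors directly. Embryonic stem cells are known for a low threshold for this mitochondrial pathway, and Mcl1, a protein of very short half-life, is needed from the earliest embryonic stages.

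The part shared by all 3 groups is the BH3 segment, shown here for the members on which the results turn, with 1 to 3 of each group. Each line is the coding strand of 27 bases, and the capitals mark the codons of the BH3 core: leucine, any 3 residues, glycine and aspartate. These stretches were read from GENCODE M21 transcripts (GRCm38, the same assembly as mm10).
Mcl1: accCTGCGGCGCGTGGGCGACggcgtg
Bcl2l1: gcgCTGAGAGAGGCAGGCGATgagttt
Bak1: cagCTTGCTCTCATCGGAGATgatatt
Bcl2l11: gagCTGCGGCGGATCGGAGACgagttc
Bid: catCTCGCCCAAATAGGCGATgagatg
Bad: gagCTCCGAAGGATGAGCGATgagttt
The Mcl1 stretch lies in exon 1 of 3 at chr3:95659433-95659459 on the plus strand, and that of Bcl2l1 in exon 2 of 3 at chr2:152829700-152829726 on the minus strand. For Bak1 it is in exon 4 of 6 at chr17:27022534-27022560 (minus), for Bcl2l11 in exon 3 of 4 at chr2:128147147-128147173 (plus), for Bid in exon 4 of 6 at chr6:120897292-120897318 (minus) and for Bad in exon 3 at chr19:6950789-6950815 (plus). All are coding sequence. Bad has a serine codon in place of the glycine codon, so it matched only a wider pattern that allows methionine for leucine and serine for glycine. In an in-frame search of the coding strand, the stricter pattern was found once in 8 of 10 members and in 13.3% of the 20462 coding sequences searched, and the wider pattern once in 10 of 10 members and in 30.3% of them. A match is a description of the letters only.

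Levels of the members were compared with each other per kb of the longest matched RefSeq transcript, since longer transcripts collect more reads. Mcl1 was by far the most abundant, at 2138 ± 215 normalized counts per kb in WT and 2567 ± 211 in KO libraries (SD, n = 4). Bak1 (343 ± 41.6 in WT, 301 ± 49.1 in KO), Bid (318 ± 28.5 and 377 ± 27.2) and Bcl2l1 (303 ± 60.5 and 367 ± 24.9) came next. The ranges of these 3 over all 8 libraries overlapped one another, so their order is not resolved. Bcl2l2 (140.5 ± 11.7 per kb in WT), Bcl2l11 (131 ± 29.0), Bad (92.3 ± 8.79) and Bok (77.7 ± 15.5) formed a lower tier in which each neighbour in the order overlapped the next. Bik was lower, at 36.0 ± 6.27 per kb in WT, and Bcl2, the founding member of the family, was the lowest at 2.45 ± 0.36 in WT and 2.64 ± 0.80 in KO. Over the 4 pro-survival members, Mcl1 made up 82.2% to 84.1% of the summed level per kb in WT libraries and 82.4% to 85.4% in KO libraries. The values hold for transcripts, with reads shared between isoforms not resolved. In bulk RNA, a change in the number of cells that express a gene and a change in RNA per cell cannot be told apart.

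**Figure D1:**
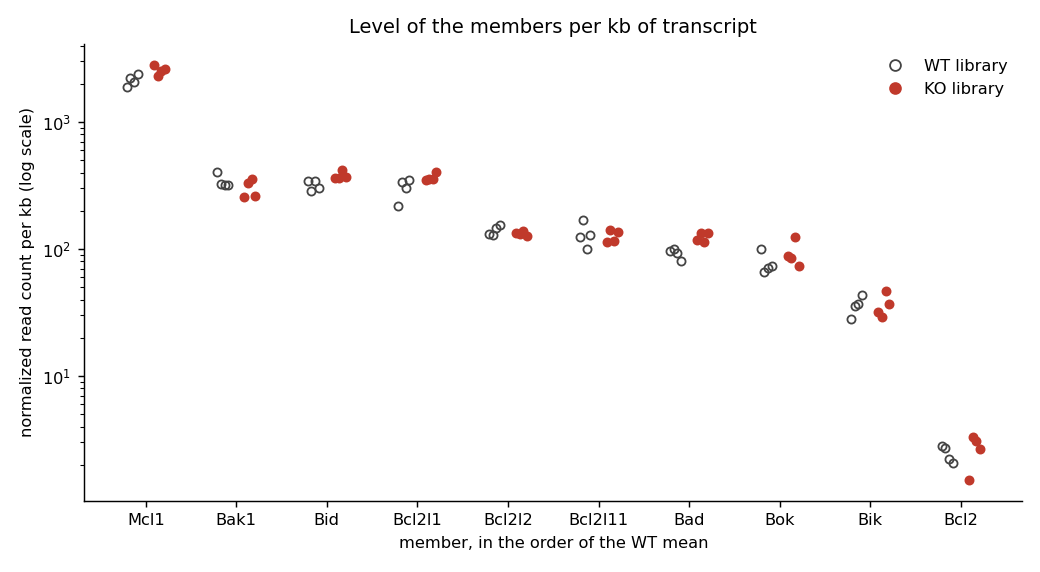
Normalized read count per kb of transcript (log scale) for each member in the 4 WT (open) and 4 KO (filled) libraries, in the order of the WT mean. Mcl1 lies above every other member and Bcl2 below every other member in all 8 libraries.

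Among the pro-survival members, Mcl1 and Bcl2l1 were higher in KO by about 1.2-fold with overlapping groups, and Bcl2l2 and Bcl2 were close between the genotypes. Mcl1 was at 9659.5, 7909, 8646 and 8881 in KO and at 6395, 7620.4, 7103 and 8114 in WT. Only WT replicate 4 (8114) exceeded the lowest KO library, KO replicate 2 (7909). The mean was 8774 ± 721 in KO and 7308 ± 736 in WT (SD, n = 4), a log2 fold change of 0.26 (95% interval -0.041 to 0.57). The two-sided exact permutation test gave p = 0.0571, where 4 against 4 libraries cannot go below 0.0286, and limma an adjusted p of 0.589. The permutation test leaves clone and day out of account, so its p-values here and below are approximate. Blocked by day, the log2 fold change was 0.16.

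Bcl2l1, whose long isoform encodes Bcl-xL, was at 895, 922, 917 and 1037 in the KO libraries. The WT libraries held 558, 870.1, 780.1 and 904. In these deposited values WT replicate 1 was far below the rest, and WT replicate 4 was above the lowest KO library, so the groups overlapped. The log2 fold change was 0.29 (95% interval -0.14 to 0.71, exact permutation p = 0.0571, limma adjusted p = 0.659). It was 0.16 without WT replicate 1 and 0.15 without KO replicate 4, the highest library. The clone correction shifted Bcl2l1 by 12.3% of its mean, and undoing it left a log2 fold change of 0.28. WT replicate 1 was then at 664, close to WT replicate 3 at 674. WT replicate 4, at 1009, was then above KO replicates 1, 2 and 3 (789, 817 and 812).

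As deposited, Bcl2l2, encoding Bcl-w, was the steadiest member with a coefficient of variation of 6.88% over the 8 libraries. It was at 468, 462, 490.2 and 444 in KO and at 465, 455, 509.8 and 543 in WT. The clone correction had shifted Bcl2l2 by 12.2% of its mean. With the correction undone its values ran from 396 in WT replicate 2 to 602 in WT replicate 4, so the steadiness holds for the deposited values only. Its groups overlapped, and the 95% interval of its fold change ran from 0.787 to 1.14 (exact permutation p = 0.286, limma adjusted p = 0.830). Bcl2 was at 10.9, 23.7, 22.3 and 19.1 in KO and at 20.2, 19.4, 15.9 and 14.9 in WT. KO replicate 1 was the lowest library of all and KO replicates 2 and 3 were the highest. These values rest on 10 to 40 recovered reads per library, and the 95% interval of the fold change was 0.682 to 1.61 (exact permutation p = 0.857, limma adjusted p = 0.943). Bcl2 shares 558 of its 9157 exon bases with an antisense transcript, and Bcl2l2 shares 594 of 4462 with the gene model Gm20521 on its own strand, both of which are not in the table. Bcl2 is high in lymphoid cells, and of the blood markers Ptprc, the pan-leukocyte antigen CD45, was uneven: the KO libraries held 40, 154, 96 and 101 recovered reads of it, the WT libraries 1, 0, 0 and 201. KO replicate 1 was the lowest and KO replicate 2 the highest KO library, by normalized count for Bcl2 and by recovered reads for Ptprc. Recovered reads are not scaled for library depth, so these ranks are on unlike measures. By recovered reads, Bcl2 was at 13 in both KO replicate 1 and KO replicate 4. WT replicate 4 had the most Ptprc reads and the lowest WT value of Bcl2. The part of blood cells in the Bcl2 values was not tested.

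**Figure D2:**
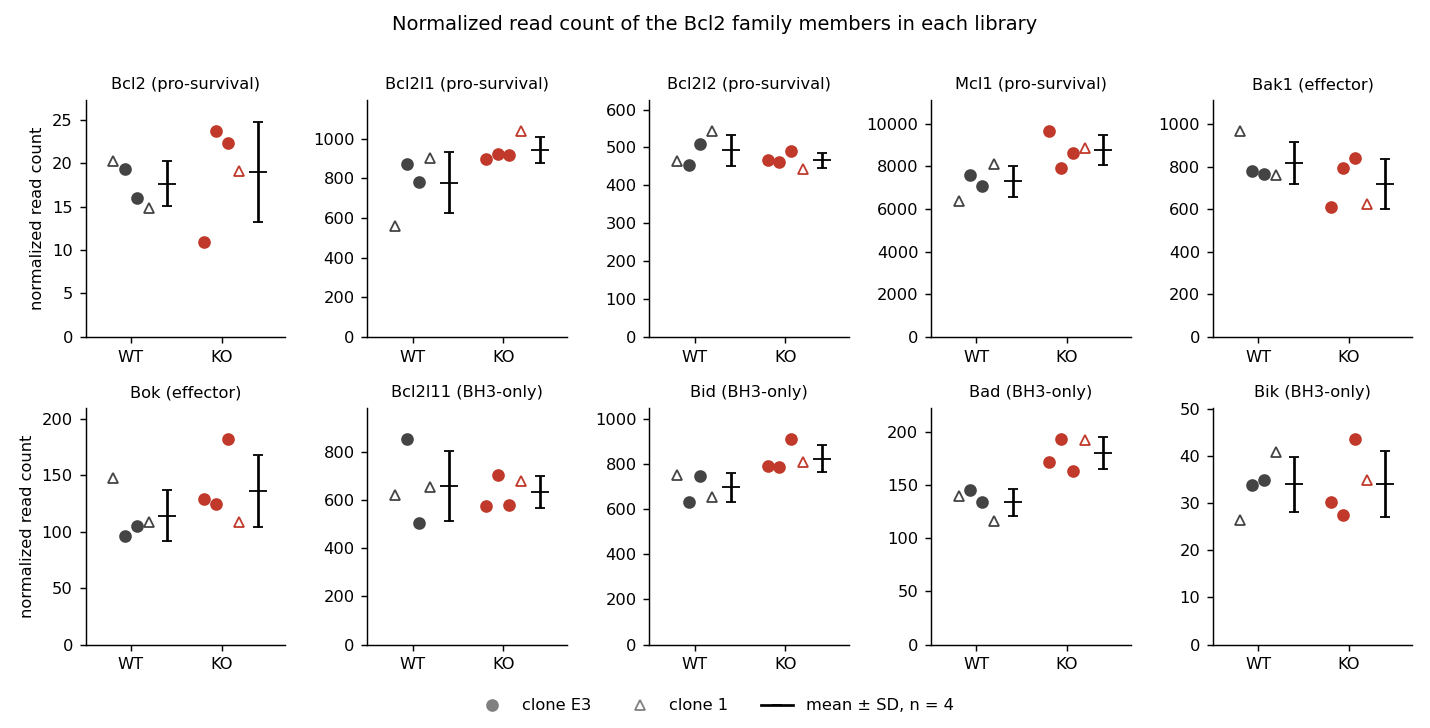
Normalized read count of each member in every library, WT in grey and KO in red, filled circles for clone E3 and open triangles for clone 1, with libraries in replicate order from left to right and the mean ± SD of 4 libraries beside them. All 4 KO libraries lie above all 4 WT libraries for Bid and Bad, and the genotypes overlap for the other 8 members.

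For both effectors, Bak1 and Bok, the genotypes overlapped, with a lower mean of Bak1 and a higher mean of Bok in KO. Bak1 was at 610.4, 792, 843 and 626 in KO and at 967, 782, 763 and 762 in WT. WT replicates 2 to 4 lay between 762 and 782, whereas WT replicate 1 was apart from them and the KO libraries fell into a lower and a higher pair. The log2 fold change was -0.20 (95% interval -0.59 to 0.19, exact permutation p = 0.286, limma adjusted p = 0.714). It was -0.12 without WT replicate 1 and -0.059 without KO replicate 4. Bak1 shares 614 of its 2407 exon bases with Ggnbp1 on the opposite strand, which was at 116 ± 23.4 in KO and 104 ± 5.69 in WT (SD, n = 4). Bok, a relative of Bak1 that is known to act without need of Bax or Bak1, was at 129, 125, 182 and 109 in KO and at 147, 96.1, 105 and 108 in WT. Its log2 fold change was 0.25 (95% interval -0.26 to 0.76, exact permutation p = 0.286, limma adjusted p = 0.728). It ranged from 0.11 without KO replicate 3 to 0.51 without KO replicate 4. Bok was also the member that the clone correction moved most, by 13.3% of its mean: with the correction undone it was 1.37-fold higher in clone E3 than in clone 1. As deposited, WT replicate 1 held the lowest Mcl1, Bcl2l1 and Bik values and the highest Bak1 value of all 8 libraries. With the clone correction undone this still held for Mcl1, Bcl2l1 and Bak1 but not for Bik. Bik was then at 30.2 in WT replicate 1, above KO replicates 1 (26.3) and 2 (23.7).

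The BH3-only members held the clearest difference. Bad, which binds Bcl2, Bcl2l1 and Bcl2l2 and is kept inactive by phosphorylation downstream of growth factors, was at 172, 194, 164 and 193 in the KO libraries. The WT libraries had 139.9, 145, 135 and 116. Every KO library was above every WT library, and this was so within clone E3 and within clone 1. The mean was 181 ± 15.1 in KO and 134 ± 12.8 in WT (SD, n = 4), a 1.34-fold difference (95% interval 1.09 to 1.65). On the log2 scale this was 0.42 (SE 0.13), with an exact permutation p = 0.0286, the lowest possible here, an unadjusted limma p = 0.0128 and an adjusted p = 0.457. Without KO replicate 4, the single KO library of clone 1, the log2 difference was 0.33 and its unadjusted limma p was above 0.05. With a clone term, that fit draws its genotype estimate from clone E3 only. The fit of clone E3 alone (3 KO and 2 WT libraries) therefore gives the same 0.33 and is not a second check. Bad was not past that threshold in it, which 0 of 10 members and 2.77% of transcripts passed there. The clone correction hardly touched Bad, with a shift of 0.451% of its mean. Bad shares 524 of its 2558 exon bases with Gpr137 on the opposite strand, and reads were not assigned by strand as far as the sources state. Gpr137 itself was at 191 ± 26.5 in KO and 170.3 ± 12.1 in WT (SD, n = 4, limma adjusted p = 0.740).

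Bid, which is cleaved by caspase-8 and carries the death receptor signal to the mitochondrion, was at 792, 787, 913 and 809 in the KO libraries. The WT libraries were at 754, 631, 746 and 656. The groups did not overlap, although WT replicate 1 came close to the lowest KO library. The mean was 825 ± 59.6 in KO and 697 ± 62.5 in WT (SD, n = 4), a log2 fold change of 0.25 (SE 0.12, exact permutation p = 0.0286, limma adjusted p = 0.591). Its unadjusted limma p was above 0.05 with all 8 libraries. Bid shares 628 of its 3550 exon bases with Bcl2l13 on the opposite strand, and Bcl2l13 was at 1186 ± 240.3 in KO and 1200.2 ± 115 in WT (limma adjusted p = 0.961).

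The other BH3-only members had similar means in both genotypes. Bcl2l11, encoding Bim, the broadest binder of the pro-survival proteins, was at 575, 706, 582 and 679.5 in KO and at 622, 857, 506 and 654 in WT. Both the highest and the lowest Bcl2l11 value were WT libraries of clone E3. Its log2 fold change was -0.026 (95% interval -0.47 to 0.42, exact permutation p = 0.857, limma adjusted p = 0.968), and without WT replicate 2 it was 0.20. Bik, a BH3-only protein of the endoplasmic reticulum, was at 30.2, 27.5, 43.6 and 34.8 in KO and at 26.3, 33.8, 34.8 and 40.7 in WT. The means were 34.0 ± 7.06 and 33.9 ± 5.90 (SD, n = 4), on 17 to 70 recovered reads per library, and the 95% interval of the fold change was 0.719 to 1.39 (exact permutation p = 0.971, limma adjusted p = 0.998). Summed per kb, the 4 BH3-only members came to 626 to 692 in KO and 553 to 595 in WT libraries, a difference to which Bid and Bad gave most. The 4 pro-survival members came to 2808 to 3309 in KO and 2224 to 2883 in WT. The BH3-only sum was 18.9% to 23.6% of the pro-survival sum in KO and 19.2% to 26.6% in WT, so this proportion overlapped between the genotypes.

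**Figure D3:**
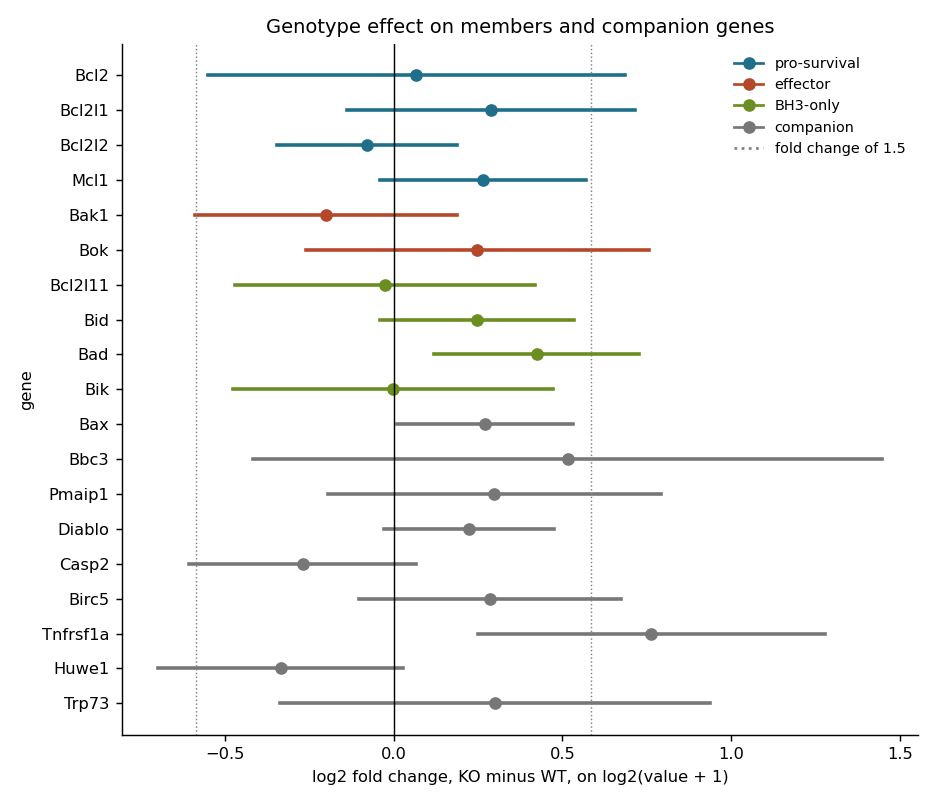
Log2 fold change of KO against WT on the log2(value + 1) scale with its 95% interval from limma (n = 4 libraries each), for the members by functional group and for the companion genes named in the text. Dotted lines mark a fold change of 1.5, and of the members only Bad has an interval that leaves out 0.

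Counted together, 1 of the 10 members (Bad) had an unadjusted limma p under 0.05, where 9.09% of all transcripts did and 4.62% did with a higher level in KO. The criterion that also asks for a fold change of 1.5 or more was met by 0 members and by 4.25% of transcripts. At an adjusted p under 0.05 there were 0 members and 0% of transcripts. The genotypes did not overlap in 2 members, Bid and Bad, both higher in KO, against 10.1% of transcripts in either direction and 5.48% higher in KO. With the clone correction undone, the groups again did not overlap in Bid and Bad, against 6.91% of transcripts in either direction and 3.55% higher in KO. Whether these counts of 1 and 2 members differ from the background was not tested. 6 of the 10 members had a log2 fold change above 0, against 50% of transcripts, and the median over the members was 0.16, against -0.00036 over all transcripts. A genotype effect that differed between the clones was not seen for the members: 0 of 10 had an adjusted limma interaction p under 0.05 (0.0885% of transcripts did) and 0 an unadjusted one (2.59% did). Clone 1 has 1 KO library, so this test is weak.

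The libraries of days 3, 4 and 5 were then compared within days. In 6 members, Bcl2, Bcl2l1, Mcl1, Bok, Bid and Bad, the KO library was above the WT library on each of the 3 days, where 24.6% of all transcripts showed this. The reverse on each day was seen in 0 members, against 25.5% of transcripts. These counts were not tested. Bid had the most even difference, with log2 values of 0.32, 0.29 and 0.30 on days 3, 4 and 5. Bad differed by 0.41, 0.28 and 0.73, and Bcl2 by 0.28, 0.46 and 0.34. The differences of Mcl1 (0.054, 0.28 and 0.13) and Bcl2l1 (0.084, 0.23 and 0.20) were smaller. Bok differed by 0.37 and 0.79 in clone E3 and by 0.0036 in clone 1. With day as a block over these 6 libraries, Bad (log2 fold change 0.47), Bid (0.30) and Bcl2 (0.36) had an unadjusted limma p under 0.05, where 19.2% of transcripts did and 9.92% did with a higher level in KO. Their adjusted limma p-values were 0.225, 0.234 and 0.225. For Bcl2 this rests on leaving out KO replicate 1 and WT replicate 1, which have no partner, and with voom on the recovered reads and the same block its unadjusted p was above 0.05.

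**Figure D4:**
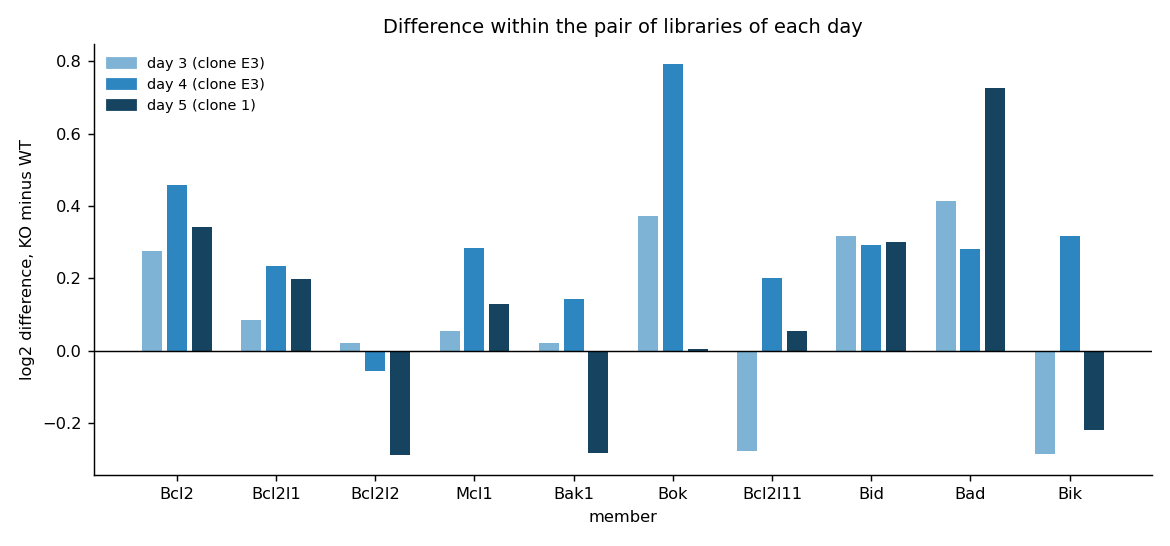
Difference of log2(value + 1), KO minus WT, between the KO and the WT library of day 3, day 4 (both clone E3) and day 5 (clone 1) for each member. All 3 bars are above 0 for Bcl2, Bcl2l1, Mcl1, Bok, Bid and Bad, and the bars of Bid are the most even, between 0.29 and 0.32.

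Genes that act with the members were read from 7 companion lists, of which 51 of 56 genes were in the table. Bcl2a1a, Bcl2a1b, Bcl2a1d, Bcl2l10 and Bcl2l15 were not in it. Of the 51, 2 had an unadjusted limma p under 0.05, Bax and Tnfrsf1a, both higher in KO, against 9.09% of transcripts, and 0 had an adjusted one. Bax, the effector that acts beside Bak1, was at 2429 ± 93.0 normalized counts in KO and 2016 ± 157 in WT (SD, n = 4) with no overlap, a log2 fold change of 0.27 (exact permutation p = 0.0286, limma adjusted p = 0.541). Its unadjusted limma p was above 0.05 in 10 of the 22 alternatives, among them without KO replicate 4 (0.22) and with a day block (0.28). Of the 10 further family genes present, Bax among them, Bbc3 (Puma) was at 397 ± 179 in KO and 265 ± 76.2 in WT, with a log2 fold change of 0.52 (exact permutation p = 0.314, limma adjusted p = 0.701). This moved to 0.28 without KO replicate 3, 0.32 without WT replicate 2, 0.82 without WT replicate 3 and 0.79 without KO replicate 1, where its unadjusted p was under 0.05. Within days Bbc3 differed by 0.85, 0.73 and 0.82, and the day block gave a limma adjusted p = 0.199 with the unadjusted one under 0.05. Pmaip1 (Noxa), which binds Mcl1, was at 1658 ± 265 and 1352 ± 320 (exact permutation p = 0.229, limma adjusted p = 0.682). Its log2 fold change of 0.30 was 0.019 without KO replicate 4 and 0.52, with an unadjusted p under 0.05, without WT replicate 3.

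Tnfrsf1a, the receptor for TNF that can lead to cleavage of Bid, was at 164 ± 26.7 normalized counts in KO and 95.8 ± 21.05 in WT (SD, n = 4). This log2 fold change of 0.76 (exact permutation p = 0.0286, limma adjusted p = 0.452) passed the fold criterion, and the groups did not overlap. Without KO replicate 4 it was 0.63 and its unadjusted p above 0.05. It was the 1 gene of 7 on the death receptor list past the unadjusted threshold. In the fit blocked by day, 8 of the 51 companion genes were past it, where 19.2% of transcripts were. These were Bbc3, Endog (log2 fold change 0.30), Casp2 (-0.32), Tnfrsf1a, Tradd (0.54), Ripk1 (0.29), Usp9x and Foxo3 (0.37). Casp2 and Usp9x were lower in KO and the others higher, and no limma adjusted p among them was under 0.05.

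On the other lists, the count past an unadjusted limma p of 0.05 was 0. Of 12 genes of the mitochondrion and the apoptosome, Diablo (Smac), which relieves caspases of their inhibitors, had the smallest p: 1245 ± 78.3 in KO and 1065 ± 44.5 in WT (SD, n = 4), with no overlap (log2 fold change 0.22, exact permutation p = 0.0286, limma adjusted p = 0.586). Of 6 caspases it was the initiator Casp2 (476 ± 62.6 and 572 ± 49.7, log2 fold change -0.27, exact permutation p = 0.0857, limma adjusted p = 0.613). Of 5 inhibitors of apoptosis it was Birc5, survivin (3099.8 ± 474 and 2547 ± 335, log2 fold change 0.29, exact permutation p = 0.114, limma adjusted p = 0.640), at 0.16 without WT replicate 3 and blocked by day. Mcl1 protein is turned over through ubiquitin ligases such as Huwe1 and protected by the deubiquitinase Usp9x. Of the 4 genes of that list Huwe1 had the smallest p (9686 ± 1355 and 12206 ± 1295, log2 fold change -0.33, exact permutation p = 0.0857, limma adjusted p = 0.573). It was -0.22 blocked by day. Usp9x had a log2 fold change of -0.72 in that fit (limma adjusted p = 0.260), to which day 4 gave most, with within-day differences of -0.35, -1.43 and -0.39. KO replicate 3 was at 2816 for Usp9x and the other KO libraries at 7390.4, 8168 and 6559.5, and it was also the lowest of the 8 libraries for Dnm1l, Xiap, Birc2 and Birc6. Of the 7 genes on the list of regulators the p53 relative Trp73 had the smallest p (129 ± 32.1 and 104 ± 28.6, log2 fold change 0.30, exact permutation p = 0.229, limma adjusted p = 0.736). Its log2 fold change was 0.54 without WT replicate 3, 0.16 without WT replicate 1 and -0.027 without KO replicate 4. Trp53 itself was at 3976 ± 175 and 4108 ± 409.8 (SD, n = 4, limma adjusted p = 0.919).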

How the data were processed

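mRNA of 8 mES cell libraries (4 KO, 4 WT) was sequenced from a poly-A kit that does not mark strand. The authors aligned reads to mm10 with TopHat2 and Bowtie2 2.2.1 after CASAVA 1.8, and counted reads per RefSeq transcript in Partek 6.6. They normalized counts with DESeq2, applied a batch correction (taken here as one for clone), floored values at 1 and removed transcripts of low expression. What was deposited is thus a signal: normalized read counts after an additive correction.

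To undo the correction, each value was written as whole reads multiplied by a library factor, with a shift per transcript. This gave unique whole reads for 13528 of 13558 transcripts (99.8%) and for all 10 members. Recovered reads cover the deposited transcripts only. The method and the limma fit were tested on simulated data. Genotype and clone were fitted on log2(value + 1) with limma 3.58.1 (R 4.3.3). Adjustment was by Benjamini-Hochberg over 13558 transcripts. Fold changes are on that scale, which understates changes of low transcripts. Single members were also compared by an exact two-sided permutation test over the 70 assignments of libraries, without regard to clone or day. It is exact in that every assignment was counted, but it takes the libraries as exchangeable. Same-day pairs and the clone correction break that assumption, so its p-values are approximate. Intervals and read ranges cover these libraries only.

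The day of the labels pairs libraries. With the correction undone, the deviations of the same-day pairs from their group means had correlations of 0.54, 0.63 and 0.52 across transcripts, while the 13 other pairs had a median of -0.18. As deposited, the pair of day 5 was at -0.23. Libraries of a day also share a clone.

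Genes named were all members, Trim71, Bax, Bbc3, Pmaip1 and, of each companion list, the genes past an unadjusted p of 0.05 (at most 4) or otherwise that with the smallest p. Tradd, Ripk1, Usp9x, Endog, Foxo3, Dnm1l, Xiap, Birc2, Birc6, Trp53 and the neighbours that share exons were named after their values were seen. The members and lists were chosen with earlier results of these data known. Some of the markers on the lists are not reported here. Coordinates, lengths and sequences came from GENCODE M21. Other steps ran in Python 3.11.15 (numpy 2.4.6, with pandas 2.3.3 and scipy 1.17.1, and matplotlib 3.10.9 for plots). The alternatives tried were other scalings, pseudocounts, filters, variance models, recovered reads (voom), the day block, clone E3 alone and leaving out each library.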

Additional observations from a re-analysis of the deposited data

Results flagged for a closer look

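Bak1 in WT replicate 1 was at 967 normalized counts, while the next highest WT library was at 782. The gap to the nearest library was 0.904 of the range of the 4 WT libraries, which is above the limit of Dixon's test. With the clone correction undone the value was 967 as well. The test was applied to 20 groups of 4 libraries (10 members in both genotypes), of which chance alone flags about 1.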

How the results depend on the processing

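Under 22 alternatives, 7 of the 10 members kept the direction of their log2 fold change, and the counts of members past the fold change criterion and at an adjusted p under 0.05 were 0 under all of them. Bad stayed between 0.33 and 0.48, with an unadjusted p under 0.05 in 20 of the 22. The count of members with an unadjusted p under 0.05 (1) was 2 in 6 libraries without a block, for a linear model on untransformed values and for voom on recovered reads. It was 3 in the fit lacking a clone term and in both fits with the replicate block by day (limma, voom), and 0 in clone E3 alone. Leaving out a library gave 0 to 1. For companion genes (2) it was 1 in 6 libraries without a block, in clone E3 alone and with median scaling, 4 with the linear model and with a trended robust prior, 5 lacking a clone term or using voom, 8 in the blocked fit, 11 in the blocked voom fit and 0 to 4 when leaving out a library. Of all transcripts, 576 passed the fold change criterion. This was 278 in clone E3 alone, 382 with the linear model, 315 at a mean of at least 50, 1015 in the blocked fit, 1082 in the blocked voom fit and 260 to 835 when leaving out a library, lowest without KO replicate 4. An unadjusted p under 0.05 was found in 1232 transcripts, in 376 in clone E3 alone, 1898 lacking a clone term, 2601 in the blocked fit, 3211 in the blocked voom fit and 442 to 1444 when leaving out a library, again lowest without KO replicate 4. Without KO replicate 4, clone 1 holds WT libraries only. The genotype estimate of that fit thus comes from clone E3 and equals that of clone E3 alone. Other causes were not tested.

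Some log2 fold changes near 0 changed sign. When leaving out a library, Bcl2 (0.067) ranged from -0.042 to 0.27, below 0 without KO replicate 2, KO replicate 3 or WT replicate 4. Bcl2l11 (-0.026) ranged from -0.21 to 0.20, above 0 without KO replicate 1, KO replicate 3 or WT replicate 2, and was at 0.025 in voom. Bik (-0.0017) ranged from -0.11 to 0.081, above 0 without KO replicate 1 or 2 or WT replicate 2, 3 or 4. It was also at 0.0049 in the linear model, 0.0055 and 0.013 after median and upper quartile scaling and 0.023 in blocked voom. Trp73 (0.30) ranged from -0.027 to 0.54, and was at -0.027 without KO replicate 4, which is the same estimate as in clone E3 alone. Bid passed an unadjusted p of 0.05 in 4 alternatives (linear model, no clone term, both blocked fits), Mcl1 in 2 (no clone term, voom), and Bok in 1 (blocked voom). Bcl2 and Bik rest on the fewest reads of the members, 10 to 70 per library, and how far depth limits them was not tested.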
